A study of Rattus norvegicus with 12 samples.

Results

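The small RNA rno_piR_004288 is 1 of the 701 piRNA names listed in the 12 small RNA libraries of this study of rat liver. It was taken by its name from each library's table and was listed in all 12. It was chosen by its abundance and its lower read count at 48 hours than in sham-operated liver, so its values at 48h are a description below, with no test. The libraries came from Fischer-344 (F-344) rats, an inbred strain: 6 from sham-operated normal liver (pre_PH), and 2 each taken 24, 48 and 168 hours after partial hepatectomy (24h, 48h and 168h). In partial hepatectomy a surgeon takes out some lobes of the liver, and the lobes left behind grow until the mass is restored. The labels gave no age, no time after the sham operation, and no statement of whether replicates were separate or pooled animals. The p-values therefore rest on a spread among libraries that could be technical only, and any preparation step shared by both libraries of 1 time cannot be told apart from the time itself.

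PIWI-interacting RNAs (piRNAs) are short RNAs, somewhat longer than microRNAs, that are loaded into PIWI proteins of the Argonaute family. They are best known from the germ line, where they guide the silencing of transposons and where loss of the pathway causes sterility. Their presence and function in adult somatic tissues such as liver are much less settled, and names in piRNA databases can also be matched by fragments of other abundant small RNAs. The targets, the genomic source and the nucleotide sequence of rno_piR_004288 were not used here, and neither were the PIWI genes.

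Library totals ranged from 20741811 to 31467460 reads, and the reads listed for piRNAs from 120844 to 351818. The library of pre_PH replicate 3 held the most piRNA reads. The 48h libraries listed 328 and 446 piRNA names, and all others from 128 to 216. All values come from bulk liver, in which fewer cells of a type and less of an RNA per cell cannot be told apart.

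In sham-operated liver rno_piR_004288 was usually second in read count only to rno_piR_000685. It ranked 2 in 4 of the 6 sham libraries, 4 in replicate 4 and 6 in replicate 3. Over all 12 libraries its mean share of piRNA reads, 10.7%, was the third highest, between rno_piR_005556 at 11.1% and rno_piR_005567 at 8.06%. Its rank was 3 and 5 in the 24h libraries, 7 and 10 at 48h, and 2 and 4 at 168h.

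The level relative to library size (RPM, reads of this piRNA per 1000000 library reads) was lowest at 48h and stood apart from every other group there. In pre_PH the lowest value was 357 RPM, the median 820 and the highest 1272. At 24h replicate 1 had 452 RPM and replicate 2 had 390. The values at 48h were 259 and 221 RPM, below all 6 sham libraries. At 168h they were 621 and 397 RPM, inside the sham range like those at 24h. The group means were 805 ± 338 RPM (SD, n = 6) in pre_PH, then 421 ± 43.6, 240.1 ± 26.6 and 509 ± 158 at the 3 times in order (n = 2 each). The order of the means was thus pre_PH, 168h, 24h and 48h. Neighbours in that order overlapped except for the last step, where the lower 24h library was 1.51 times the higher 48h library.

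The size and the separation of the low level at 48h depended on what the reads were counted against. The mean in pre_PH was 3.35 times that at 48h in RPM. As the authors' percent of reads mapped to piRNAs, rno_piR_004288 took 2.85 to 26.6% in pre_PH (median 14.0%), and 4.42% and 2.75% at 48h. On this scale the groups overlapped, because pre_PH replicate 3 lay between the 48h libraries. The percent was 10.8% and 4.86% at 24h, and 15.2% and 7.42% at 168h. The mean in pre_PH was 3.89 times that at 48h in this unit.

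On the third scale, CPM of piRNA reads adjusted by TMM (trimmed mean of M-values, a scaling that assumes most species do not change), the contrast was wider. Sham libraries had 59448 to 223972 normalised CPM (median 127268), and the 48h libraries 29561 and 19357. The lowest sham library was 2.01 times the higher 48h library, and the means differed 5.50-fold, a log2 fold change of -2.46. Such a gap was not particular to rno_piR_004288. For rno_piR_000685 the lowest sham value was 280040 and the highest at 48h 174249. For rno_piR_005567 both 48h libraries lay above the sham range, at 71059 or more against at most 39498. How many of all piRNAs showed a gap was not counted. At 48h 10 of the 80 piRNAs tested, 12.5%, were called lower and 27, 33.8%, higher than in pre_PH. Of the 80, 60 had reads in all libraries. The filter works by group and can keep a piRNA with reads mainly in the 48h libraries. The share called higher is therefore in part set by the filter. Normalised CPM of rno_piR_004288 was 108641 and 63352 at 24h, and 181318 and 57208 at 168h, where replicate 2 lay just below the sham range. Normalised CPM is divided by a TMM factor per library, and those of the 48h libraries, 1.51 and 1.44, were the highest of the 12.

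**Figure D1:**
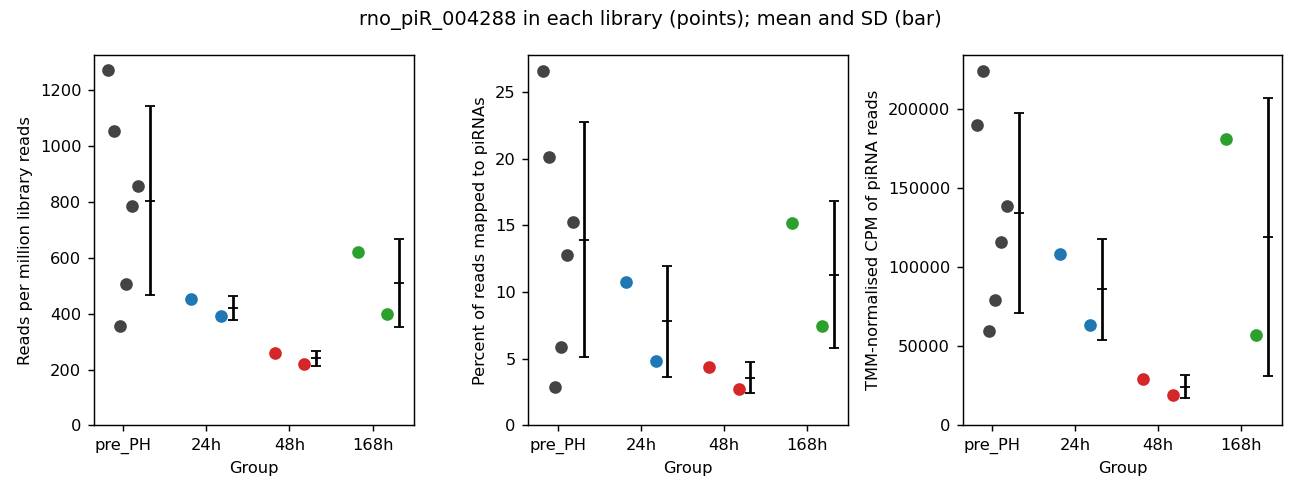
Level of rno_piR_004288 in each library (points) by group, as RPM of library reads, as percent of reads mapped to piRNAs, and as TMM-normalised CPM, with the group mean and SD (bars, n = 6 in pre_PH and 2 at each time). Both 48h libraries, at 259 and 221 RPM, lie below the lowest sham library (357 RPM), whereas in percent of piRNA reads they overlap it.

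The sham libraries spread widely around their mean. Counting error alone gave 95% Wilson intervals of the share of piRNA reads such as 2.79 to 2.90% in replicate 3, 12.7 to 13.0% in replicate 5 and 26.3 to 26.8% in replicate 1. On the log2 scale the SD of normalised CPM over the sham libraries was 0.73. Among the other 9 of the 10 most abundant piRNAs that SD ran from 0.42 to 2.80, with a median of 0.81, and over the piRNAs found in all libraries the median was 0.65. The spread of rno_piR_004288 was thus neither among the widest nor among the narrowest.

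Across the 6 sham libraries rno_piR_004288 was lower wherever the other piRNAs together were higher, with no exception in order. Replicate 1 had 1272 RPM of it beside 3509 RPM of all other listed piRNAs. Replicate 2 had 1052 beside 4157, replicate 6 had 856 beside 4744, and replicate 5 had 784 beside 5326. Replicates 4 and 3 had 507 beside 8073 and 357 beside 12172. A line through the log2 values had a slope of -1.02, so that the product of both quantities was nearly the same in each sham library. Pearson's r of the log2 values was -0.997 and Spearman's rho was -1 over the 6 libraries. Without replicates 3 and 4, the libraries farthest from the median of the other piRNAs, r was -0.994 over the remaining 4. The relation was noticed in these values and is given as a description, with no test. Both quantities share the library total as denominator. Against the number of library reads r was -0.21 and rho -0.43.

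The other abundant piRNAs did not all run opposite to rno_piR_004288 in sham liver. Of the other 9 of the 10 most abundant, 5 had a negative rank correlation with it in RPM and 4 a positive one (n = 6, a description). For rno_piR_000685, the most abundant, at 1877 to 5736 RPM in sham liver, rho was -1. It was between -0.89 and -0.77 for rno_piR_005556, rno_piR_005787, rno_piR_008639 and rno_piR_000030. Positive values of 0.60 were found for rno_piR_005567 and rno_piR_005359, with 0.20 for rno_piR_005901 and 0.14 for rno_piR_005900. When each of the 61 piRNAs found in all libraries was set against the sum of all others in the same way, r had a median of -0.12. It was below -0.9 for 3 of them, with rno_piR_004288 the lowest, followed by rno_piR_019160 at -0.95 and rno_piR_005791 at -0.93.

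After hepatectomy every library lay below the line of the sham libraries. At the amount of other piRNAs each library held, the sham line gave the level that rno_piR_004288 is divided by here. The 6 sham libraries lay between 0.952 and 1.04 of the line, a closeness set in part by fitting the line to these same libraries. The ratios were 0.395 and 0.705 at 24h, 0.339 and 0.407 at 48h, and 0.50 and 0.46 at 168h. For 168h replicate 1 the line was extended past the sham libraries, to 3455 RPM of other piRNAs against a sham minimum of 3509. The library of 24h replicate 2 was nearest to the line, and the ratio of 24h replicate 1 lay between those of the 48h libraries. Within each of the 3 times, the library with more of the other piRNAs again had less rno_piR_004288. These ratios were worked out after the relation was seen, carry no test and do not show a difference at 24h or 168h, for which the tests are given below.

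**Figure D2:**
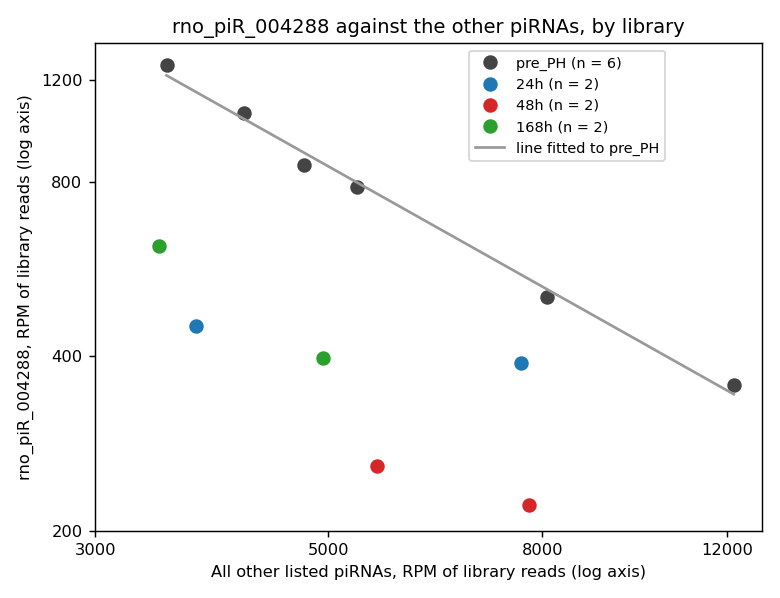
RPM of rno_piR_004288 against the summed RPM of all other listed piRNAs, 1 point per library, both axes logarithmic, with the line fitted to the 6 pre_PH libraries (grey). The sham libraries, to which the line was fitted, lie within 0.952 to 1.04 of it, and all 6 libraries after hepatectomy lie below it, at 0.339 to 0.705 of its level. For 168h replicate 1, with less of the other piRNAs than any sham library, the line was extended.

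The summed level of the other piRNAs was not low at 48h along with that of rno_piR_004288. They summed to 6330 ± 3267 RPM (SD, n = 6, median 5035) in pre_PH, and to 5567 and 7776 RPM in the 48h libraries. Both lay within the sham range of 3509 to 12172, and above 4 of the 6 sham libraries. The mean of rno_piR_004288 was 565 RPM less at 48h than in pre_PH, while that of all others was 342 RPM more.

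Ratios of reads within a library need no scaling, and they placed rno_piR_004288 lower at 48h against all of the other 9 abundant piRNAs on the geometric mean. The 48h to pre_PH ratio of these ratios ran from 0.0515 against rno_piR_005567 to 0.579 against rno_piR_000685. The separation differed between partners. In pre_PH there were 1.51 to 5.08 reads of rno_piR_004288 per read of rno_piR_005900, and 0.490 and 0.563 in the 48h libraries. Per read of rno_piR_005567 there were 2.93 to 8.54 in pre_PH, and 0.416 and 0.162 at 48h. Both 48h libraries lay below the sham range against these and against rno_piR_005901. Against rno_piR_008639 and rno_piR_005359 only 1 of the 48h libraries did. Against rno_piR_000685 neither did, with 0.0622 to 0.678 reads per read in pre_PH and 0.191 and 0.111 at 48h. The same held for rno_piR_005556, rno_piR_005787 and rno_piR_000030. Against rno_piR_005787 the sham range alone ran from 0.256 to 232. A ratio also holds any change of the partner. Mean normalised CPM was 27027 in pre_PH and 95388 at 48h for rno_piR_005567, and 58528 and 95597 for rno_piR_005901. For rno_piR_005900 it was 51588 and 47364.

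Early in regeneration, at 24h, a lower level of rno_piR_004288 was not established. Both 24h libraries lay below 5 of the 6 sham libraries in RPM and above replicate 3. The log2 fold change of normalised CPM was -0.65 ± 0.76 (SE, edgeR adjusted p = 0.812), in a comparison that called 2 of 80 piRNAs, 2.5%. In RPM the geometric mean at 24h was 0.568 of that in pre_PH (exact permutation p = 0.214, adjusted p = 0.643 over 6 tests). In percent of piRNA reads it was 0.658 (exact permutation p = 0.536, adjusted p = 0.643). That is -0.60 on the log2 scale, which was -1.18 without 24h replicate 1 and -0.03 without 24h replicate 2. With 28 splits of 2 against 6 libraries the smallest p is 0.0357. A test that reached it alone would not pass 0.05 after adjustment over the 6 tests. Without pre_PH replicate 3 the RPM test gave p = 0.0476, the smallest that design allows (exact permutation adjusted p = 0.286).

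At 168h the level was again inside or at the edge of the sham range, with the pair of libraries apart. The log2 fold change against pre_PH was -0.17 ± 0.73 (SE, edgeR adjusted p = 0.892), where 5 of 80 piRNAs, 6.25%, were called. It was -1.35 without pre_PH replicate 4 and turned to 0.032 without pre_PH replicate 2. The geometric mean was 0.672 of that in pre_PH in RPM (exact permutation p = 0.357, adjusted p = 0.643) and 0.967 in percent of piRNA reads (exact permutation p = 0.929, adjusted p = 0.929). The direction in percent turned in 4 of the 8 tests that left out 1 library. Replicate 1 had 3.17 times the normalised CPM of replicate 2. Between 24h and 168h the log2 fold change was 0.47 ± 0.89 (SE, edgeR adjusted p = 0.817), where 1 of 80 piRNAs, 1.25%, was called, and its direction turned under other scalings. These errors are wide, and a test that was not passed does not show equal levels. Against 48h, as a description, normalised CPM at 168h was 4.88 times higher and that at 24h 3.52 times higher.

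Among the other 9 of the 10 most abundant piRNAs, a list drawn up with earlier results of these data known, 0 were called at 24h, where 2.5% of all piRNAs tested were. At 168h 1 was called higher, rno_piR_005567, where 6.25% of all tested were called. Its normalised CPM at 168h was 45188 and 319686, against a sham maximum of 39498, so that replicate 2 held most of it. Its log2 fold change, 2.75 ± 0.69 (SE, adjusted p = 0.0278 by edgeR), was 0.17 without 168h replicate 2 (adjusted p = 0.931 by edgeR). The call was lost in 7 of the 12 fits that left out 1 library: pre_PH replicate 4 or 6, either 24h library, either 48h library, or 168h replicate 2. The median log2 fold change of the 9 was 0.41 at 24h, against -0.22 over all 80 tested, and -0.69 at 168h, against 0.33. At 24h 1 of the 9, rno_piR_005900 at -1.22 ± 0.69 (edgeR adjusted p = 0.525), had a lower log2 fold change than rno_piR_004288. At 168h 6 of the 9 had a lower one.

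The number of distinct read sequences behind rno_piR_004288 lay between 22 and 30 in all libraries, while its reads varied 6.32-fold. For rno_piR_000685 it lay between 86 and 91, and whether such numbers are at a ceiling at these depths was not tested. In pre_PH the lowest number was 25, the median 28 and the highest 30. It was 24 and 22 at 24h, 25 and 28 at 48h, and 26 and 25 at 168h. The 48h libraries, with 5371 and 6963 reads, thus held as many distinct sequences as sham libraries with 10016 and 24784 reads. Both 24h libraries, with 13207 and 8933 reads, lay below the sham range, which was noticed after the values were seen and not tested. Over the 12 libraries the number varied 1.36-fold.

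With so even a number of sequences, the reads per distinct sequence largely repeat the read count, with no scaling for depth. In pre_PH the reads per distinct sequence ran from 401 to 1131 with a median of 832. They were 550 and 406 at 24h, 215 and 249 at 48h, and 741 and 437 at 168h. The 48h libraries were below all other libraries, as their read counts were. The geometric mean was 0.665 of that in pre_PH at 24h (exact permutation p = 0.321, adjusted p = 0.643) and 0.800 at 168h (exact permutation p = 0.536, adjusted p = 0.643). The median over the 12 libraries, 507 reads per distinct sequence, was the third highest of the 61 piRNAs found in all libraries, whose own median was 9.56. Higher were rno_piR_000685 with 645, and rno_piR_005901 with 8959, for which every library listed 1 distinct sequence.

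**Figure D3:**
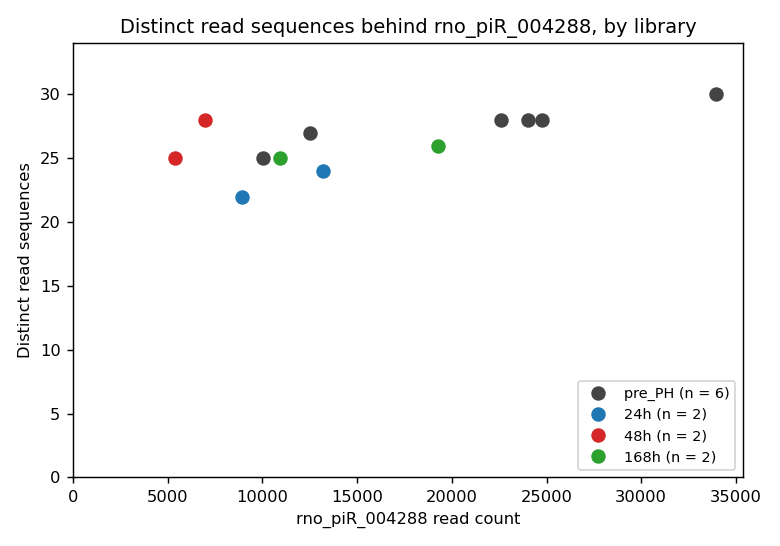
Distinct read sequences (vertical axis) against the read count (horizontal axis) of rno_piR_004288, 1 point per library, coloured by group. The number of distinct sequences stays between 22 and 30 while the reads run from 5371 to 33934. The 24h libraries have the fewest, which was not tested.

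The piRNAs whose pattern was most like that of rno_piR_004288 held small shares of piRNA reads, as most piRNAs did. They were ranked by Pearson's r of log2 normalised CPM over the 12 libraries among 59 other piRNAs found in all of them and tested. The points share their scaling and include the 48h libraries, so r is a description with no p. It was 0.87 for rno_piR_000753, 0.86 for rno_piR_001825, 0.86 for rno_piR_005791, 0.85 for rno_piR_000562 and 0.75 for rno_piR_000746, against a median of 0.19. Spearman's rho was 0.80, 0.84, 0.76, 0.76 and 0.55 in the same order. Their mean shares of piRNA reads were 0.0195%, 0.0249%, 0.104%, 0.170% and 1.06%. Small shares were not particular to them. By mean share rno_piR_000746 ranked 12 of the 61 piRNAs found in all libraries, so most of the 61 held less than it.

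The likeness was lower without the 48h libraries. Then r over the other 10 libraries was 0.67 for rno_piR_000753, 0.71 for rno_piR_001825, 0.68 for rno_piR_005791, 0.54 for rno_piR_000562 and 0.42 for rno_piR_000746, and 2 of the 5 were still among the 5 highest. Within the 6 sham libraries alone r was 0.96 for rno_piR_005791, the highest of the 59, and 0.75 for rno_piR_001825. It was 0.56, 0.07 and 0.25 for rno_piR_000753, rno_piR_000562 and rno_piR_000746.

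Levels at the other times are given for a pair of these piRNAs. For rno_piR_005791, normalised CPM was 969 ± 411 (SD, n = 6) in pre_PH, followed by 1179 ± 474, 351 ± 79.6 and 1628 ± 694 at the 3 times (n = 2 each). For rno_piR_000753 it was 288 ± 67.9, 103 ± 75.4, 34.5 ± 13.4 and 196 ± 122 in the same order. The first had its highest mean at 168h, and the second was below the sham range in both libraries at 24h, at 156 and 49.6 against 235 to 380. The differences in pattern between these piRNAs and rno_piR_004288 were not tested.

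**Figure D4:**
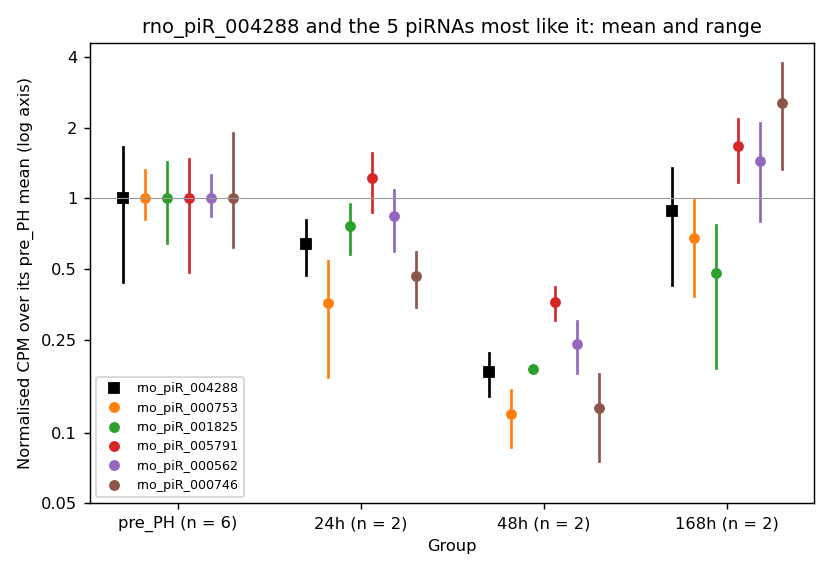
Normalised CPM of rno_piR_004288 (black squares) and of the 5 piRNAs most like it (coloured circles) relative to each one's pre_PH mean, on a log axis, as group mean and range over libraries (n = 6 in pre_PH and 2 at each time). All 6 have their lowest mean at 48h, whereas their means at 24h and 168h lie on both sides of the pre_PH mean. The 5 were picked by likeness over all libraries, those at 48h included, so the shared low at 48h is no independent result.

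The log2 fold change of rno_piR_004288 at 48h kept its direction under every setting tried but not its size. Over the other settings it ran from -3.18 to -1.19, and with 1 library left out from -3.77 to -2.25. It was -2.46 with all libraries, and leaving out 48h replicate 1 gave -3.77. Leaving out 168h replicate 1 gave -3.68, and leaving out 24h replicate 2 gave -3.50. The libraries at 24h and 168h enter this contrast only through the shared scaling, filter and spread. Scaled to the authors' library totals, it was -1.74. Because rno_piR_004288 was chosen for its lower read count at 48h in these same libraries, the kept direction is no independent support.

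**Figure D5:**
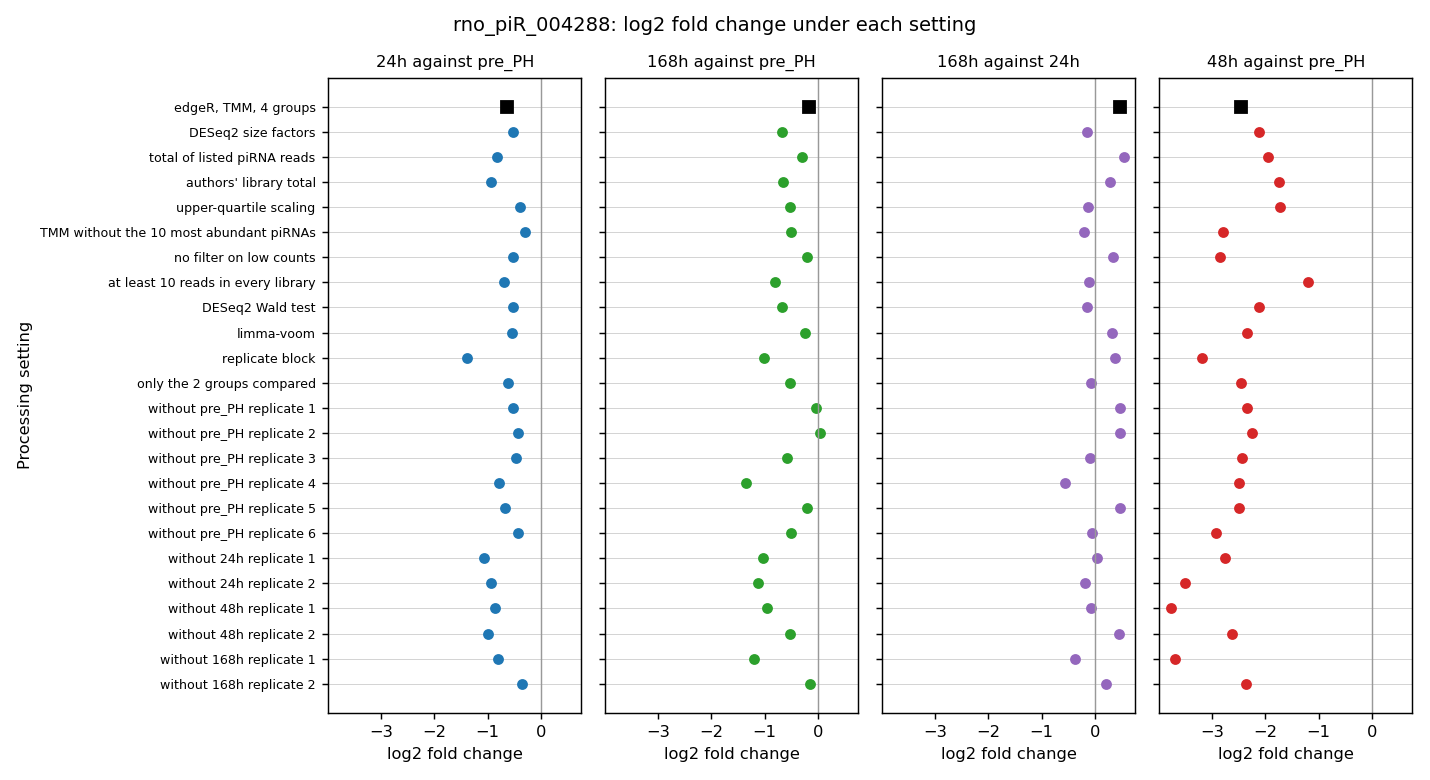
Log2 fold change of normalised rno_piR_004288 counts (horizontal axis) under each processing setting (rows) for 4 contrasts, 1 panel each, with the values of the design used in the text as black squares. All values at 48h against pre_PH are negative, from -3.77 to -1.19, whereas those of 168h against 24h lie on both sides of 0.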

How the data were processed

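Small RNA libraries of 12 rat liver samples were used. TRIzol extraction of total RNA, the Illumina TruSeq small RNA kit and gel purification were used, per the labels' protocols. Each deposited table lists piRNA names with the read count (whole numbers, not normalised) and the number of distinct read sequences, also a count, per the file headers. The deposited tables also give each piRNA as a percent of all reads and a percent of reads mapped to piRNAs, per the file headers. CASAVA 1.8, cutadapt, DESeq 1.14.0 and rn4 were used per the submitters' processing notes, with no role stated. What aligned the reads, with how many mismatches, and how reads matching several names were treated is not given in the sources used here, so near-identical names could share reads.

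Library totals were obtained as read count over percent, which gave 1 constant per library. Unlisted piRNAs were taken as 0. Counts of all piRNAs in all 12 libraries entered 1 edgeR 4.0.16 quasi-likelihood fit of 4 groups in R 4.3.3 (TMM, filterByExpr, 80 piRNAs, Benjamini-Hochberg adjusted p under 0.05). The scripts were tested on simulated data. Standard errors are the log2 fold change over the square root of F. Single values were compared by exact two-sided permutation of mean log2 values. Wilson intervals cover only counting error, as PCR copies of 1 molecule are counted more than once.

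Named piRNAs are rno_piR_004288, the 5 with the highest Pearson's r with it, its neighbours in abundance, and members of a list of 9 other abundant piRNAs. The members and lists were chosen with earlier results of these data known, and further piRNAs in the sham relation after their values were seen. Alternatives were other scalings, filters and tests (DESeq2 1.42.0, limma 3.58.1), a replicate block and leaving out each library.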

Additional observations from a re-analysis of the deposited data

How the results depend on the processing

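At 24h against pre_PH the log2 fold change stayed negative under all other settings, from -1.39 to -0.30, and with each library left out, from -1.06 to -0.37, and passed in none (adjusted p from 0.436 to 1). At 168h against pre_PH the other settings gave -1.01 to -0.20 and leaving out 1 library -1.35 to 0.032, turning sign without pre_PH replicate 2, with adjusted p from 0.280 to 1. Between 24h and 168h the value of 0.47 turned to -0.15 with DESeq2 size factors and with the DESeq2 Wald test, -0.14 with upper-quartile scaling, -0.21 with TMM without the 10 most abundant piRNAs, -0.11 with at least 10 reads in every library and -0.087 with only the groups compared. With 1 library left out it ran from -0.57 to 0.47 (adjusted p from 0.755 to 1), and the cause was not tested. At 48h against pre_PH, upper-quartile scaling moved it to -1.73 and the filter of at least 10 reads in every library to -1.19, and leaving out 1 library gave -3.77 to -2.25. In the permutation tests on log2 values, the share of piRNA reads at 24h ran from -1.18 to -0.03 and at 168h from -0.57 to 0.47, and reads per distinct sequence at 168h from -0.70 to 0.060, with 1 library left out. The correlation of rno_piR_004288 with the other piRNAs over sham libraries stayed between -0.998 and -0.997 with each left out, an alternative chosen after seeing the data. For same-numbered libraries of different groups, r of their deviations ran from -0.44 to 0.35, with a median of 0.14. For differently numbered ones it ran from -0.35 to 0.44, with a median of -0.14. With 2 libraries at each time the deviations within a time are exact opposites. These values therefore cannot decide whether the numbers pair the libraries. With the replicate block the log2 fold changes were -1.39, -1.01 and 0.37 for 24h and 168h against pre_PH and 168h against 24h. At 48h against pre_PH the value was -3.18. The piRNAs called numbered 1, 0, 0 and 27 of 80 in place of 2, 5, 1 and 37. Replicate numbers 3 to 6 occur only in pre_PH, so the blocked contrasts with pre_PH rest on sham replicates 1 and 2. Those had the highest normalised CPM of rno_piR_004288 in sham liver, 189796 and 223972. The blocked values therefore do not separate an effect of pairing from one of fewer sham libraries. The lowest read count of rno_piR_004288 in a library was 5371.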

Other observations

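The piRNA least like rno_piR_004288 among the 59 compared was rno_piR_002100, with r = -0.88 over the 12 libraries, -0.85 over the 6 sham libraries and -0.74 without the 48h libraries. Its normalised CPM was 58.7 ± 27.7 (SD, n = 6) in pre_PH, followed by 65.4 ± 12.2, 408 ± 124 and 50.3 ± 17.8 at the 3 times (n = 2 each). It was named after its values were seen, and the values are a description with no test.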
